A study of Mus musculus with 12 samples.

Results

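This account is about 31 genes of the citric acid cycle and of branched-chain amino acid oxidation in mouse heart. They were picked by symbol from the deposited gene table, where all 31 were found among 17379 genes. All 31 passed the filter on low counts and were tested among 13849 genes. Gene expression was measured by mRNA sequencing of 12 hearts dissected at 6 months of age, 3 in each of 4 groups. Compound mice carried the HRC S96A variant on one allele together with the 25 bp MYBPC3 deletion on both alleles. The MYBPC3 deletion group was homozygous for that deletion alone, and the HRC variant group was heterozygous for S96A alone. Nontransgenic mice were labelled C57BL/WT. All compound and all HRC variant mice were female, while the MYBPC3 deletion and the nontransgenic groups each held 2 males and 1 female, the female being replicate 3 in both. How the alleles were made, what drives a transgene, and how much of the atria each heart sample held are not stated in the labels. Replicates are known only as separate samples of a group, so p-values reflect the spread among those samples, part of which may be technical.

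The citric acid cycle oxidises acetyl-CoA in the mitochondrial matrix and feeds electrons to the respiratory chain, which makes nearly all of the ATP that a beating heart uses. Leucine, isoleucine and valine are broken down in the same compartment. After transamination their keto acids are committed to oxidation by the branched-chain keto acid dehydrogenase complex, which the kinase BCKDK switches off and the phosphatase PPM1K switches on. The leucine branch ends in acetyl-CoA and acetoacetate, and the isoleucine and valine branches send propionyl-CoA through propionyl-CoA carboxylase into the cycle as succinyl-CoA.

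Promoter sequence was taken from RefSeq for build GRCm38.p6, as windows from 250 bases before to 50 bases after a transcript's start. The table held 38 windows for 29 of the 31 genes. Dbt and Idh3a had no entry. The windows of 3 genes are shown. Against nontransgenic mice, Ppm1k had the largest fitted difference in compound hearts and Pcx in MYBPC3 deletion hearts. Ogdh was picked by its sequence, because it matched the most kinds of motif. Ppm1k has 1 window, the Pcx window is the upstream 1 of 2, and the Ogdh window is 1 of 6, several of which overlap each other. Capitals mark CACGTG, the E-box, and TGACCTT, which is AAGGTCA (the half-site of oestrogen-related receptors) read on the other strand.
Ppm1k, chr6:57535438-57535737, minus strand: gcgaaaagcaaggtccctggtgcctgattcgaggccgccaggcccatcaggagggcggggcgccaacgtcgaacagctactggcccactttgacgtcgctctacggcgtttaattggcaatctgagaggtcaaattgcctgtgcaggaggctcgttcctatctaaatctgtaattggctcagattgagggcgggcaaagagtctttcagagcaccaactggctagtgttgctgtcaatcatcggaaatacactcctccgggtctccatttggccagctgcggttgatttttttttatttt
Pcx, chr19:4510222-4510521, plus strand: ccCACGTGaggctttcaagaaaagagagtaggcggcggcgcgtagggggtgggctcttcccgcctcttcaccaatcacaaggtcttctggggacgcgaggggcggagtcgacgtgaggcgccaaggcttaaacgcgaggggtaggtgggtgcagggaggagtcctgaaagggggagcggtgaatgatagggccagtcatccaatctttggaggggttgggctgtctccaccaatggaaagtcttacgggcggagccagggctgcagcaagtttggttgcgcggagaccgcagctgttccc
Ogdh, chr11:6291920-6292219, plus strand: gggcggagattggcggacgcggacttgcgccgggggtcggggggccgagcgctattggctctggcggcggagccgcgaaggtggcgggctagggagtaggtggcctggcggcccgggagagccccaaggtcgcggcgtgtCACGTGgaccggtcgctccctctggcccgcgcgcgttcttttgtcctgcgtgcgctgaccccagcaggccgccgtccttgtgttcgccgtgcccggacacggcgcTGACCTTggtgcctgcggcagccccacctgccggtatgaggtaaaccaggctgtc
The 2 marked motifs of the Ogdh window lie apart and share no base. Of the 4 motifs searched on both strands, the E-box was in 5 of the 38 windows (Mccc2, Ogdh and Pcx), against 7.15% of 32851 windows of all genes. The letters AAGGTCA were in 1 window (Ogdh), against 4.72% of all windows. GCATGCGC, the core of NRF1 sites, was in 3 windows (Ogdh and Pccb), against 2.71%. These window counts hold repeats, because 2 overlapping Ogdh windows share the same E-box and the same GCATGCGC. By gene, the E-box was in 3 and GCATGCGC in 2 of the 29 genes. CCGGAAG, a core of ETS sites, was in 4 windows (Auh, Dlst, Idh3b and Idh3g), against 8.86%. The Ppm1k window held none of these letters. The windows were between 37.3% and 72.3% G and C, the Ogdh window shown being the highest, against a median of 52.7% over all windows.

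Total counts ranged from 15615189 to 20581196 per library. Levels below are in CPM (counts scaled to a common library total), and levels of different genes are compared only in the authors' TPM, which corrects for transcript length. Mybpc3 had 3530, 3660 and 3920 CPM in compound hearts, 2460, 2920 and 2530 CPM in MYBPC3 deletion hearts, 2900, 3300 and 3850 CPM in HRC variant hearts and 4890, 3520 and 3630 CPM in nontransgenic hearts. The labels do not say that either alteration removes the messenger, so these values check no label. Defining cardiomyocyte messengers (Myh6, Tnnt2, Actc1) were abundant in all 12 libraries. HRC variant 1 stood apart in the beta-globin genes Hbb-bs and Hbb-bt, with 7.72 and 1.39 CPM against at least 278 and 38.2 CPM in the others, but not in alpha-globin (Hba-a1 1901 CPM) or in the summed red cell markers (3249 CPM, with 2423 to 7660 CPM in the others). MYBPC3 deletion 2 and nontransgenic 2 stood apart in B-cell markers, whose 4 tested genes summed to 73.1 and 37.8 CPM, against 3.26 to 8.02 CPM in the others. The fits were repeated without each library in turn. In heart tissue measured in bulk, fewer cells of a type and less RNA per cell cannot be told apart.

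The cycle was the more abundant of the 2 pathways. In TPM, the highest means over 12 libraries were those of Mdh2 (2446), the mitochondrial malate dehydrogenase, and Idh2 (2177), the NADP-dependent isocitrate dehydrogenase. They were followed by Mdh1 (1511), the cytosolic malate dehydrogenase, and Ogdh (1434), the first subunit of the 2-oxoglutarate dehydrogenase complex. Idh3b (1170 TPM) and Idh3g (1157 TPM), subunits of the NAD-dependent isocitrate dehydrogenase, and Cs (1100 TPM), citrate synthase, came next. The third subunit gene, Idh3a, had 433 TPM. The lowest means were those of Dbt (34.7 TPM), the acyltransferase core of the branched-chain complex, Acad8 (31.4 TPM), the isobutyryl-CoA dehydrogenase of valine breakdown, Ppm1k (25.3 TPM) and Pcx (21.3 TPM), pyruvate carboxylase. The 12 cycle enzymes summed to 12756 ± 226 TPM in compound hearts, 10654 ± 1181 TPM in MYBPC3 deletion hearts, 11433 ± 1401 TPM in HRC variant hearts and 11390 ± 312 TPM in nontransgenic hearts (SD, n = 3 each). The 16 branched-chain genes summed to 2247 ± 66.8 TPM, 1849 ± 221 TPM, 2016 ± 344 TPM and 1930 ± 81.9 TPM in the same order of groups. Both sums were highest on average in compound hearts, and the HRC variant SD alone was larger than any gap between the other 3 means and its own for the branched-chain sum.

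**Figure D1:**
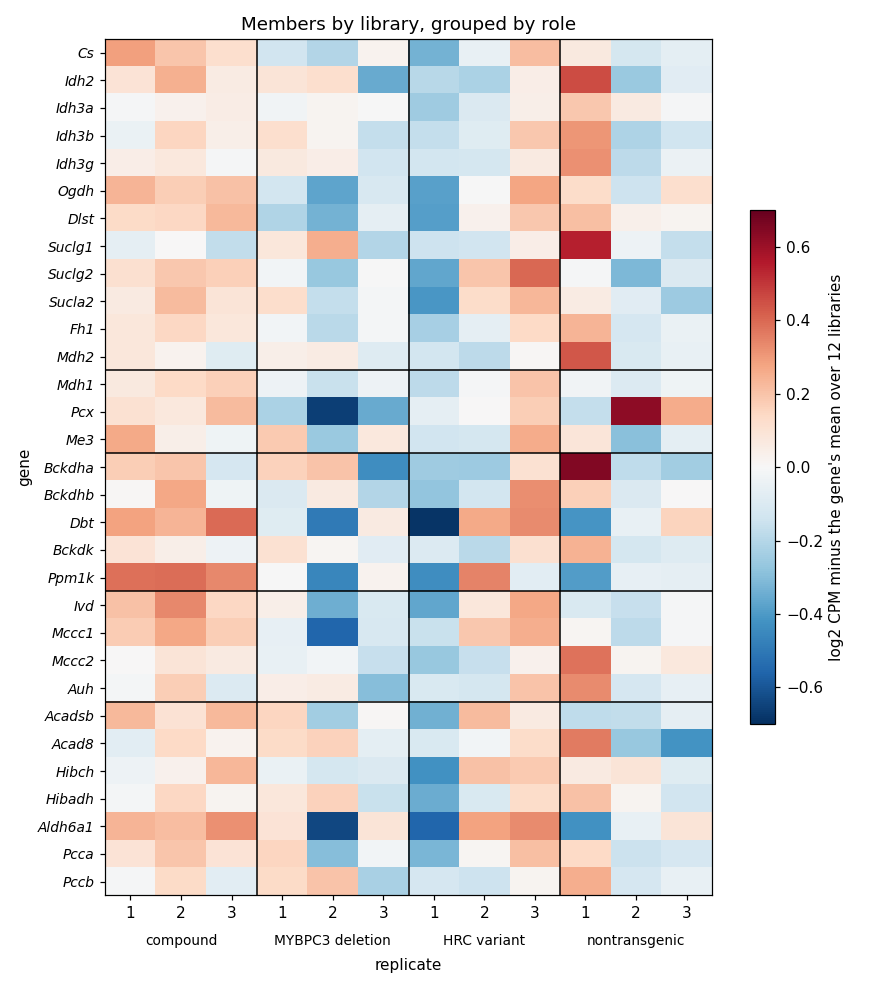
Log2 CPM of each of the 31 genes less the gene's mean over 12 libraries, by library (columns, replicates 1 to 3 of each group) and gene (rows, with lines between roles). Compound libraries are mostly above the mean, HRC variant 1 is below it for every gene, and nontransgenic 1 and MYBPC3 deletion 2 have strong values of both signs.

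No member passed edgeR's quasi-likelihood test in any of the 6 contrasts at a Benjamini-Hochberg adjusted p under 0.05. That share was 0% of all tested genes in each contrast as well. In compound against nontransgenic hearts, the unadjusted edgeR p was under 0.05 for 0 of 31 members, where 6.36% of all genes were, and DESeq2 called 0 members and 0.275% of all genes. The fitted level was higher in compound hearts for 28 of 31 members and lower for 3 (Idh3a, Pcx and Mccc2), while 49.7% of all genes were fitted higher. The members' median log2 difference was 0.16, against 0.00 over all genes. Both values rest on the terms of the fit. The sex term is set only by the MYBPC3 deletion and nontransgenic groups, which each hold 1 female heart. Without the sex term 22 members were fitted higher and 9 lower, with a median of 0.07, and with the atrial marker level as a further term 3 were fitted higher and 28 lower, with a median of -0.15. For 11 members every compound library was above every nontransgenic library, a pattern that 8.79% of all genes had. Counting both directions, 18.8% of all genes had non-overlapping groups, and 0 members were lower in every compound library. The 11 were Cs, Ogdh, Suclg2, Sucla2, Mdh1, Dbt, Ppm1k, Ivd, Mccc1, Acadsb and Aldh6a1. They came from the cycle and from every branch of amino acid oxidation. All 11 belong to the larger correlated set described below, which has longer transcripts by the median than the set next in size. Without nontransgenic 1 the count was 21, where 15.5% of all genes had the pattern. Among females alone, with 1 nontransgenic heart, the members' median was 0.17.

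The branched-chain dehydrogenase complex and its regulators were all fitted higher in compound than in nontransgenic hearts with sex as a term. Ppm1k, the phosphatase that activates the complex, had 104, 105 and 101 CPM in compound hearts, 79.9, 58.2 and 81.4 CPM in MYBPC3 deletion hearts, 59.2, 102 and 76.0 CPM in HRC variant hearts and 60.9, 76.7 and 76.6 CPM in nontransgenic hearts. The 3 compound libraries lay close together and above all nontransgenic and all MYBPC3 deletion libraries, while HRC variant 2 reached their range. Its log2 difference was 0.40 (SE 0.22, edgeR p 0.0927, adjusted p 0.838). Bckdha, the catalytic alpha subunit of the complex, had 468, 475 and 383 CPM in compound hearts and 649.9, 367 and 350.3 CPM in nontransgenic hearts. Nontransgenic 1 was above every compound library, and the groups overlapped. The fitted difference with sex as a term was 0.36 (SE 0.23, adjusted p 0.883). Without the sex term it was -0.04, so its sign rests on that term. Dbt had 77.7, 75.4 and 84.0 CPM in compound hearts, against 47.9, 61.6 and 71.2 CPM in nontransgenic hearts. Its compound libraries were all higher, though its log2 difference of 0.16 had an SE of 0.27. Bckdk, the kinase that inactivates the complex, averaged 201 ± 9.07 CPM in compound hearts and 199 ± 28.7 CPM in nontransgenic hearts (SD, n = 3 each). Bckdhb, the beta subunit, averaged 82.1 ± 9.65 CPM and 78.7 ± 7.38 CPM in the same 2 groups.

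**Figure D2:**
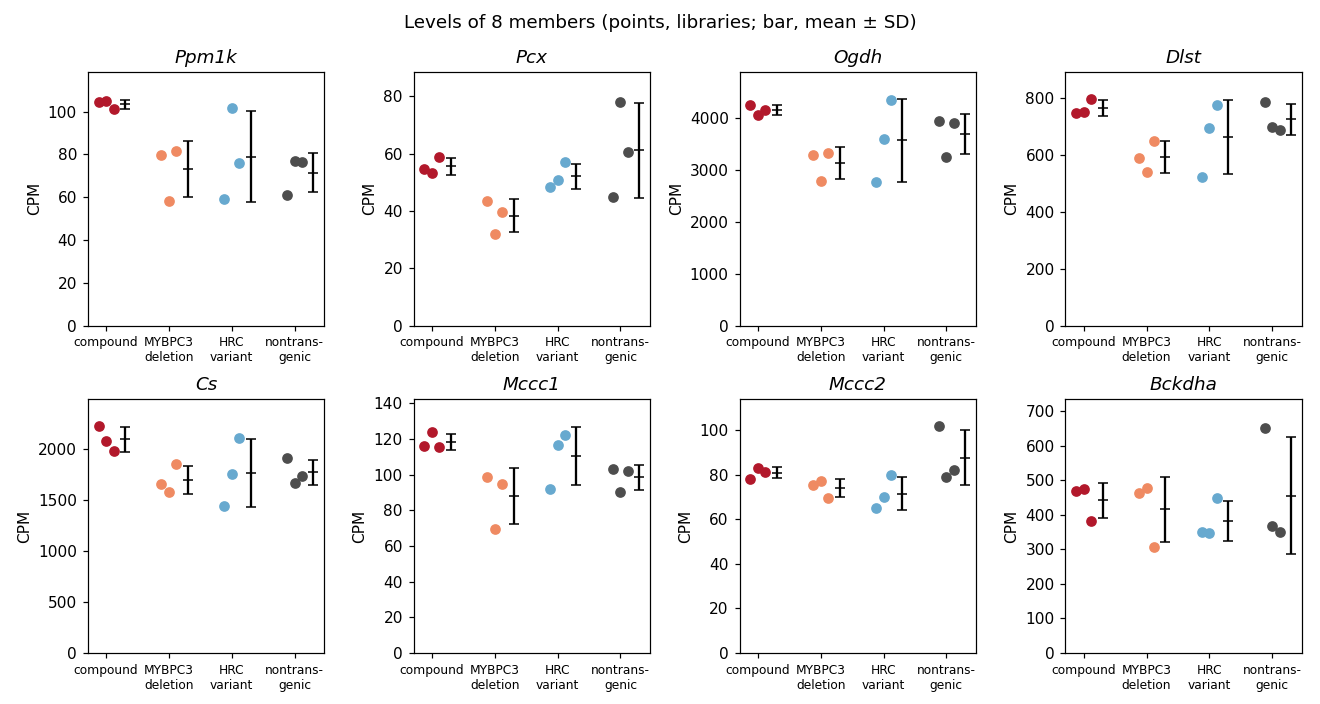
CPM of 8 members in each library (points) with the group mean ± SD (bars, n = 3), groups from compound to nontransgenic. Ppm1k, Ogdh, Cs and Mccc1 have all 3 compound libraries above all nontransgenic ones, Pcx is lowest in MYBPC3 deletion hearts, and 1 nontransgenic library sets the high Bckdha and Mccc2 values.

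Of the 12 cycle enzymes, 11 were fitted higher in compound than in nontransgenic hearts in the same fit, with a median log2 difference of 0.09 and a range of -0.01 to 0.30. Mean CPM, which takes no account of sex, was lower in compound hearts for Idh3a, Idh3g, Suclg1 and Mdh2. Of these only Idh3a was fitted lower with sex as a term. Cs, the enzyme that brings acetyl-CoA into the cycle, had 2225, 2083 and 1978 CPM in compound hearts, 1661, 1581 and 1853 CPM in MYBPC3 deletion hearts, 1446, 1753 and 2112 CPM in HRC variant hearts and 1911, 1671 and 1733 CPM in nontransgenic hearts. Its compound libraries were above all MYBPC3 deletion and all nontransgenic libraries, and HRC variant 3 lay among them. Ogdh had 4241, 4049.9 and 4145 CPM in compound hearts, 3283, 2780.1 and 3331 CPM in MYBPC3 deletion hearts, 2761, 3591 and 4351 CPM in HRC variant hearts and 3936, 3254 and 3902 CPM in nontransgenic hearts. The compound values sat just above the highest nontransgenic one, and HRC variant libraries ranged from the lowest to the highest of all 12. Sucla2 and Suclg2, the ATP-forming and GTP-forming beta subunits of succinyl-CoA synthetase, averaged 500.3 ± 29.2 CPM and 185 ± 4.81 CPM in compound hearts, against 432 ± 46.9 CPM and 151 ± 16.1 CPM in nontransgenic hearts (SD, n = 3 each). Their shared alpha subunit, Suclg1, averaged 302 ± 18.1 CPM in compound hearts and 353 ± 97.9 CPM in nontransgenic hearts, with nontransgenic 1 at 465 CPM. Idh3a had 623 ± 14.0 CPM in compound hearts and 649.7 ± 46.0 CPM in nontransgenic hearts. It was the least variable member over the 12 libraries in CPM, with a coefficient of variation of 7.06%. In TPM its coefficient was 9.61%, and the least variable member was Pccb at 5.61%. Fh1, fumarase, and Mdh2 overlapped between these groups, at 369.6 ± 9.96 CPM and 1811 ± 102 CPM in compound hearts and 352 ± 47.2 CPM and 1946 ± 422 CPM in nontransgenic hearts.

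Genes of amino acid breakdown beyond the complex were also mostly fitted higher. In the leucine branch, Ivd, isovaleryl-CoA dehydrogenase, had 551, 604 and 529 CPM in compound hearts, against 444, 428 and 475 CPM in nontransgenic hearts. Mccc1, the biotin-bearing subunit of methylcrotonyl-CoA carboxylase, had 116, 124 and 116 CPM in compound hearts, against 104, 90.6 and 102 CPM in nontransgenic hearts. Both genes had non-overlapping groups, with log2 differences of 0.27 (SE 0.20) and 0.18 (SE 0.18). Mccc2, the other subunit, did not separate the groups at 78.2, 83.2 and 81.4 CPM in compound hearts and 102, 79.2 and 82.1 CPM in nontransgenic hearts. Auh, the methylglutaconyl-CoA hydratase, averaged 99.4 ± 9.495 CPM and 102 ± 17.97 CPM in these 2 groups, though with sex as a term its log2 difference was 0.14 (SE 0.17). In the isoleucine and valine branches all 7 genes were fitted higher in compound hearts with sex as a term, with a median log2 difference of 0.19. Mean CPM of Pccb was 157 in compound and 158 in nontransgenic hearts. Acad8 had the smallest p of all members, with 39.6, 46.0 and 42.4 CPM in compound hearts and 53.7, 34.7 and 31.2 CPM in nontransgenic hearts. These groups overlapped, and the fitted difference of 0.36 (SE 0.19, edgeR p 0.0836, adjusted p 0.826) again took sex as a term. It was 0.10 without that term and 0.06 with the atrial term. Acadsb, the short branched-chain acyl-CoA dehydrogenase of isoleucine breakdown, had 190.4, 175 and 191 CPM in compound hearts, against 144, 144 and 156 CPM in nontransgenic hearts, and a log2 difference of 0.27 (SE 0.18, adjusted p 0.894). Aldh6a1, methylmalonate semialdehyde dehydrogenase, had 320.4, 316 and 338 CPM in compound hearts, against 203, 262 and 289 CPM in nontransgenic hearts. Hibch, Hibadh, Pcca and Pccb, which act between isobutyryl-CoA and succinyl-CoA, had log2 differences of 0.12 to 0.19 with SEs of 0.15 to 0.19.

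In MYBPC3 deletion against nontransgenic hearts the fitted level was lower for 24 of 31 members and higher for 7, while 49.2% of all genes were fitted higher. The median log2 difference was -0.06, against 0.00 over all genes. Without nontransgenic 1 this lean was lost, with 14 members lower, 17 higher and a median of 0.02. By non-overlap, 3 members were lower in every MYBPC3 deletion library (Dlst, Pcx and Mccc2), where 5.50% of all genes were, and 0 members were higher in every library, where 4.90% of all genes were. Unadjusted edgeR p was under 0.05 for 1 member (Pcx), against 8.16% of all genes, and DESeq2 called that 1 member, against 0.963% of the genes it gave an adjusted p. Pcx, which makes oxaloacetate from pyruvate and so refills the cycle, had 43.4, 32.0 and 39.6 CPM in MYBPC3 deletion hearts, against 45.0, 78.2 and 60.5 CPM in nontransgenic hearts. The lowest nontransgenic library stood just above the highest MYBPC3 deletion library, and nontransgenic 2 was far above the rest. The log2 difference was -0.68 (SE 0.18, edgeR p 0.00233, adjusted p 0.357), and DESeq2 gave an adjusted p of 0.0482. Without nontransgenic 2 it was -0.42. That library also held the highest fat cell marker level: the 8 markers summed to 559 CPM in it, against 46.5 to 110.4 CPM in the other nontransgenic libraries, 66.4 to 164 CPM in MYBPC3 deletion hearts, 31.1 to 181 CPM in HRC variant hearts and 33.3 to 77.9 CPM in compound hearts. Adipoq was at 56.3 CPM there and no listed fat marker was at 0. Pcx is strongly expressed in fat. With the fat marker level as a term in the fit, a term chosen after seeing the data, the Pcx difference was -0.68, as without it. The part of fat cells in the Pcx difference was not tested.

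Dlst, the succinyltransferase of the 2-oxoglutarate dehydrogenase complex, had 587, 539 and 649 CPM in MYBPC3 deletion hearts, against 785, 697 and 687 CPM in nontransgenic hearts. The groups did not overlap, with a log2 difference of -0.29 (SE 0.15, edgeR p 0.0802, adjusted p 0.660). Among females alone, with 1 heart in each of the 2 groups, it was -0.07. Ogdh, its partner, had a log2 difference of -0.24 (SE 0.17, adjusted p 0.767), with nontransgenic 2 inside the MYBPC3 deletion range. Mccc2 had 75.4, 77.1 and 69.7 CPM in MYBPC3 deletion hearts, all under the nontransgenic values above, and a log2 difference of -0.24 (SE 0.12, adjusted p 0.644). All 4 leucine genes were fitted lower in MYBPC3 deletion hearts, with a median of -0.15. The 7 genes of the isoleucine and valine branches had a median of 0.00.

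In HRC variant against nontransgenic hearts the direction depended on the sex term and on single libraries. The fitted level was higher for 21 members and lower for 10, with a median log2 difference of 0.04, where 50.7% of all genes were fitted higher. Non-overlap was seen in 0 members in either direction, against 4.18% of all genes higher and 3.76% lower. Unadjusted edgeR p was under 0.05 for 0 members, against 6.23% of all genes, and DESeq2 called 0 members, against 0.181% of all genes. Without the sex term 12 members were fitted higher and 19 lower, with a median of -0.03. The smallest p was that of Acad8, with 38.7, 41.1 and 45.6 CPM in HRC variant hearts and a log2 difference of 0.33 (SE 0.19, adjusted p 0.884), which was 0.07 without the sex term. Mccc2, at 65.0, 69.9 and 79.8 CPM in HRC variant hearts, had -0.20 (SE 0.15), Pcx, at 48.5, 50.8 and 57.0 CPM, had -0.25 (SE 0.22), and Idh3a had -0.14 (SE 0.15). The HRC variant libraries stood far apart from each other. In CPM, HRC variant 1 had the lowest level of all 12 libraries for 16 members and was above the 12-library mean for 0 of 31. In TPM the lowest library for most members was MYBPC3 deletion 2. The 31 members summed to 12056 TPM there and to 12868 TPM in HRC variant 1. HRC variant 3 was above the 12-library mean in CPM for 30 members and had the highest level for 7. The median difference from nontransgenic hearts was 0.17 without HRC variant 1 and -0.09 without HRC variant 3.

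**Figure D3:**
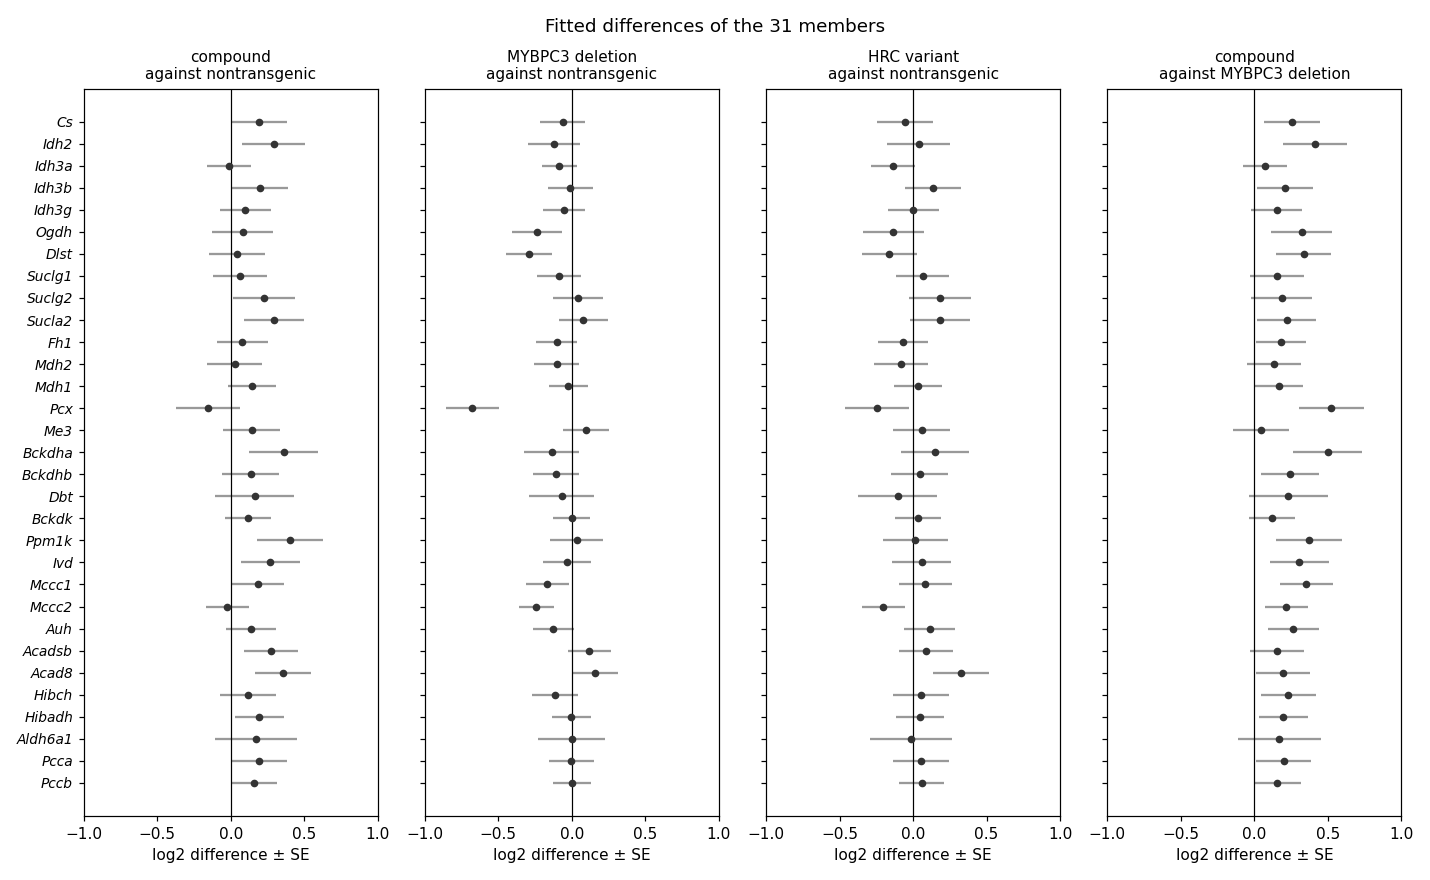
Fitted log2 difference ± SE of each of the 31 members in 4 contrasts (panels), genes in the order of their roles, from the fit with sex as a term. Most points lie right of 0 in compound against nontransgenic hearts and all do in compound against MYBPC3 deletion hearts, while Pcx stands left of the other members in both single comparisons with nontransgenic hearts.

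Compound hearts were set against each single alteration to ask what the second one adds. Against MYBPC3 deletion hearts, all 31 members were fitted higher in compound hearts, where 52.2% of all genes were, and the median log2 difference was 0.21. Without the sex term 28 were fitted higher, and with the atrial term 8 were fitted higher and 23 lower, with a median of -0.09. For 14 members every compound library was above every MYBPC3 deletion library, against 11.5% of all genes, and 0 members had the opposite pattern, against 13.7%. The 14 were Cs, Ogdh, Dlst, Suclg2, Fh1, Mdh1, Pcx, Dbt, Ppm1k, Ivd, Mccc1, Mccc2, Hibch and Aldh6a1. An unadjusted edgeR p under 0.05 was found for 1 member (Pcx), against 5.73% of all genes, and DESeq2 called 0 members, against 0.0433% of all genes. Pcx had 54.6, 53.3 and 59.0 CPM in compound hearts, all above the MYBPC3 deletion libraries, and a log2 difference of 0.52 (SE 0.22, edgeR p 0.0345, adjusted p 0.862). Bckdha had 464, 477 and 307 CPM in MYBPC3 deletion hearts, which overlapped the compound values, and a fitted difference of 0.50 (SE 0.24, adjusted p 0.862), which was 0.09 without the sex term and 0.04 with the atrial term. Mccc1, at 98.8, 69.8 and 95.0 CPM in MYBPC3 deletion hearts, did not overlap and had 0.35 (SE 0.18), or 0.13 with the atrial term. Idh2 had 2297, 2559 and 2234 CPM in compound hearts and 2286, 2330.3 and 1681 CPM in MYBPC3 deletion hearts, with 0.41 (SE 0.22), which was 0.17 without the sex term and 0.07 with the atrial term. This contrast shares its compound libraries with the comparison to nontransgenic hearts, so the direction in one is not independent of the other.

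Against HRC variant hearts, a comparison of females only, all 31 members were again fitted higher in compound hearts, where 47.6% of all genes were. The median log2 difference was 0.12. With the atrial term 12 were fitted higher and 19 lower, and the median was -0.03. Non-overlap was seen in 1 member (Idh2), against 6.20% of all genes higher and 6.22% lower. Unadjusted edgeR p was under 0.05 for 1 member (Ppm1k, log2 difference 0.39, SE 0.18, p 0.0494, adjusted p 0.787), against 6.30% of all genes, and DESeq2 called 0 members, against 0.332%. Cs had 0.24 (SE 0.15), Mccc2 0.18 (SE 0.12) and Idh2 0.25 (SE 0.18), the last with 1881, 1842 and 2226 CPM in HRC variant hearts. With the atrial term these 3 differences were 0.05, 0.03 and 0.05, while that of Ppm1k was 0.41. HRC variant 3 was within or above the compound range for 28 of the 31 members, below it only for Idh2, Ppm1k and Acadsb, while HRC variant 1 was below it for 30 and HRC variant 2 for 21. Without HRC variant 1 the members' median was 0.04.

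The interaction asks whether the compound difference departs from the sum of both single differences on the log2 scale. It was positive for 29 of 31 members, where 48.4% of all genes were, with a median of 0.19. With the atrial term 19 were positive and 12 negative, and the median was 0.07. Unadjusted edgeR p was under 0.05 for 3 members, all positive, against 8.54% of all genes, and DESeq2 called 0 members, against 0.864% of the genes it gave an adjusted p. The 3 were Pcx at 0.77 (SE 0.25, p 0.00935, adjusted p 0.544), Mccc2 at 0.42 (SE 0.17, p 0.0281, adjusted p 0.563) and Dlst at 0.50 (SE 0.22, p 0.0394, adjusted p 0.575). These are the members lower in every MYBPC3 deletion than in every nontransgenic library, and the interaction holds that same difference with its sign turned, so the overlap is built in. Without the 3 libraries that stood apart from their groups in atrial or B-cell markers (MYBPC3 deletion 2, HRC variant 3 and nontransgenic 2), Pcx was at 0.50. Ogdh followed at 0.46 (SE 0.24, adjusted p 0.637), or 0.26 with the atrial term. The negative members were Acad8, at -0.13, and Me3, the mitochondrial NADP-dependent malic enzyme, at -0.01.

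The authors' deposited table gives q-values of their own for 5 of the contrasts. In the authors' deposited table Ppm1k was the 1 member with q under 0.05 in compound against nontransgenic hearts (log2 0.54, q 0.00785), where 2.43% of genes with a q had one. For compound against MYBPC3 deletion hearts the authors' deposited table has 4 such members, against 4.24% of genes: Ogdh (log2 0.42, q 0.0133), Dlst (0.38, q 0.0308), Pcx (0.55, q 0.0188) and Ppm1k (0.51, q 0.0351). By the q-values of the authors' deposited table, no member was under 0.05 for MYBPC3 deletion against nontransgenic (0.0945% of genes), HRC variant against nontransgenic (0.0775%) and compound against HRC variant hearts (0.389%). For compound against nontransgenic hearts the authors' log2 differences were 0.54 for Ppm1k and -0.04 for Bckdha. The fit here gave 0.53 and -0.04 without the sex term, and 0.40 and 0.36 with it. Whether sex entered the authors' test is not known. Atrial markers, given below, also separated the groups in both contrasts that had such members, and their part in these calls was not tested.

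Ratios between partner genes, taken in TPM within each library, showed which pairs kept together. Idh3g to Idh3b, the 2 subunits with similar levels, stayed between 0.908 and 1.06 in all 12 libraries, with a coefficient of variation of 4.75%. Sucla2 to Suclg2 was between 4.01 and 5.28. The ratio of the activating phosphatase to the inactivating kinase, Ppm1k to Bckdk, was 0.260, 0.267 and 0.277 in compound hearts, 0.196, 0.150 and 0.225 in MYBPC3 deletion hearts, 0.164, 0.304 and 0.191 in HRC variant hearts and 0.134, 0.218 and 0.213 in nontransgenic hearts. All 3 compound hearts were above all MYBPC3 deletion and nontransgenic hearts, and HRC variant 2 was above them all. Mccc1 to Mccc2 averaged 1.01 ± 0.0279 in compound hearts, 0.824 ± 0.176 in MYBPC3 deletion hearts, 1.07 ± 0.0931 in HRC variant hearts and 0.787 ± 0.0771 in nontransgenic hearts (SD, n = 3 each), so both groups with the HRC variant had the higher mean, a difference that was not tested. They are also the all-female groups, and the 1 female heart had the highest ratio in each of the other groups, at 0.946 with the MYBPC3 deletion and 0.864 in nontransgenic mice. Bckdha to Dbt ran from 8.47 to 25.1, the widest range of the ratios computed, with nontransgenic 1 highest.

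Members differed in how closely they varied together. They were clustered by the correlation of log2 CPM over the 12 libraries, and the tree was cut into 3 sets. That number was imposed and not found from the data. The cut gave 1 set of 16 genes, 1 set of 14 genes and Pcx alone. The larger set held Cs, Ogdh, Dlst, Dbt, Ppm1k, Ivd, Mccc1, Acadsb and Aldh6a1 among others, with a median pairwise r of 0.747. The other held Idh2, the 3 Idh3 genes, Suclg1, Mdh2, Bckdha, Mccc2 and Acad8 among others, with a median r of 0.764. Between the sets the median r was 0.268. The sets were made from these same correlations, so a higher r within than between them is built in. The closest pairs were Dbt and Aldh6a1 (r = 0.970), Idh2 and Idh3g (0.955) and Idh2 and Bckdha (0.945), and the most opposed was Pcx and Acad8 (-0.541). These are descriptions over 12 libraries, which share their groups and their depth. The sets differ in transcript length, with medians of 3114 bases in the larger set and 1862 bases in the other. All members higher in every compound than in every nontransgenic library were in the larger set. So were those higher in every compound than in every MYBPC3 deletion library, except Pcx and Mccc2. Over the 31 members, level relative to the 12-library mean went with transcript length with Spearman's rho of -0.617 in nontransgenic 1, -0.679 in MYBPC3 deletion 2 and 0.651 in compound 1. Over all genes rho was -0.385, -0.458 and 0.307 in these libraries. In nontransgenic 1, Bckdha, Suclg1, Idh2 and Mdh2 were at their highest CPM of all libraries, while Ppm1k, Dbt and Aldh6a1 were under every compound value. In TPM, which corrects for length, Idh2 was highest in compound 2 and Mdh2 in compound 1, while Bckdha and Suclg1 stayed highest in nontransgenic 1. The part of length in the group differences was not tested beyond removing its trend over all genes, after which the members' median was 0.21 in compound against nontransgenic hearts.

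**Figure D4:**
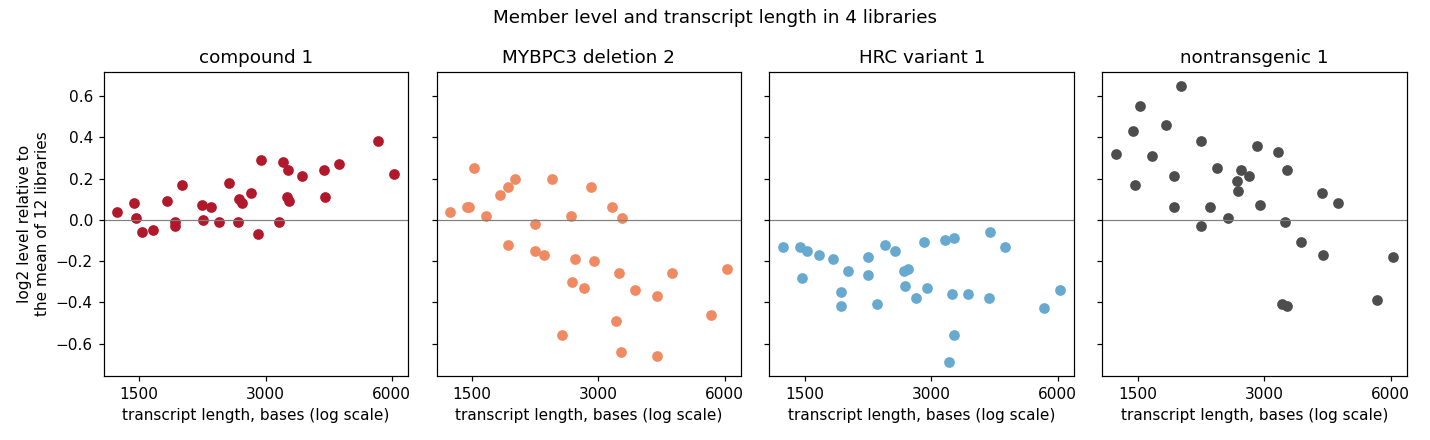
Level of each member relative to its mean over 12 libraries (log2, vertical) against transcript length in bases (log scale) in 4 libraries. Longer transcripts lie lower in MYBPC3 deletion 2 and nontransgenic 1 and higher in compound 1, and all points lie below 0 in HRC variant 1.

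Markers of several other cell types differed between the same groups. The 8 markers (Nppa, Sln, Myl4, Myl7, Myl1, Bmp10, Dkk3 and Gja5) summed to 187 to 486 CPM in compound hearts, 3678 to 6417 CPM in MYBPC3 deletion hearts, 257 to 9061 CPM in HRC variant hearts and 3633 to 9216 CPM in nontransgenic hearts. Of the 8, Bmp10 was at 0 in compound 3, and no other was at 0 in any library. The 4 libraries with the least atrial marker RNA, which are the 3 compound libraries and HRC variant 3, were 4 of the 6 whose median member level was above the 12-library mean. HRC variant 3 had a median relative log2 level of 0.18 with 257 CPM of atrial markers, and HRC variant 1 had -0.25 with 9061 CPM. Nontransgenic 1, at 3633 CPM, had 0.17, while MYBPC3 deletion 2, at 3678 CPM, had -0.15. With the atrial marker level as a term in the fit, the members' median log2 difference was -0.15 in compound against nontransgenic hearts and -0.09 in compound against MYBPC3 deletion hearts. All compound libraries were low and all nontransgenic and MYBPC3 deletion libraries high in these markers. Atrial content and genotype therefore cannot be told apart in either of these comparisons. The 6 fibroblast markers summed to 1207 to 1439 CPM in compound hearts, 1852 to 2051 CPM in MYBPC3 deletion hearts, 1298 to 2440 CPM in HRC variant hearts and 1496 to 1656 CPM in nontransgenic hearts. The 7 macrophage markers summed to 219 to 249 CPM in compound hearts, 301 to 381 CPM in MYBPC3 deletion hearts, 212 to 401 CPM in HRC variant hearts and 264 to 341 CPM in nontransgenic hearts. Compound hearts were below MYBPC3 deletion and nontransgenic hearts in both lists without overlap, no marker of either list was at 0, and their part in the members' differences was not tested.

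**Figure D5:**
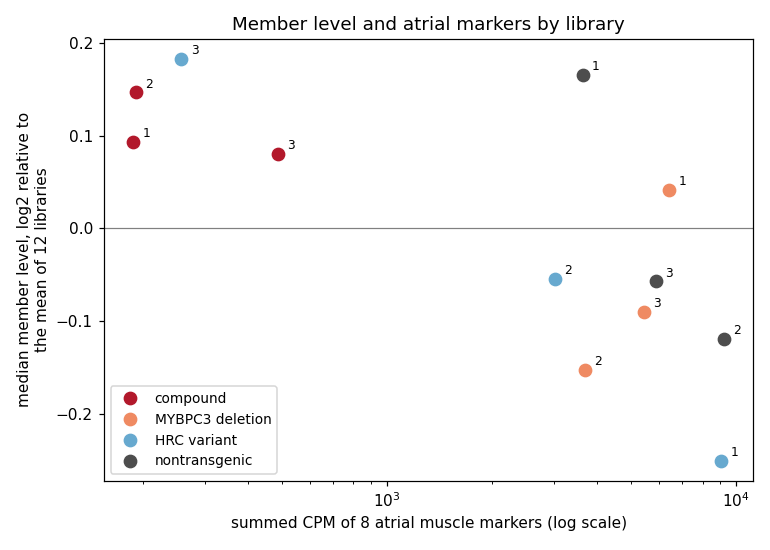
Median level of the 31 members relative to the 12-library mean (log2, vertical) against the summed CPM of 8 atrial muscle markers (log scale), 1 point per library with its replicate number. The 3 compound libraries and HRC variant 3 lie together at 187 to 486 CPM and above 0, and the other 8 libraries lie between 3028 and 9216 CPM with medians of both signs.

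A further 54 genes of pyruvate entry, the succinate dehydrogenase step, amino acid and propionate handling and their regulators were listed beside the members, of which 53 were in the table and tested. By edgeR 0 passed in any contrast. In compound against nontransgenic hearts 39 of 53 were fitted higher, in MYBPC3 deletion against nontransgenic 13, in HRC variant against nontransgenic 26, in compound against MYBPC3 deletion 43, in compound against HRC variant 41, and in the interaction 44. Of all genes, 49.7%, 49.2%, 50.7%, 52.2%, 47.6% and 48.4% were fitted higher in the same order. The companion counts come from the fit with sex as a term, and counts with the atrial term are not given. Unadjusted p under 0.05 was found for 2 higher and 2 lower in compound against nontransgenic hearts, 1 higher and 1 lower with the MYBPC3 deletion, and 0 higher and 2 lower with the HRC variant. Counting both directions, 6.36%, 8.16% and 6.23% of all genes had such a p in the same order. A p under 0.05 was found for 4 higher and 0 lower in both comparisons of compound hearts with a single alteration and in the interaction. Over all genes the shares with p under 0.05 in these 3 contrasts were the 5.73%, 6.30% and 8.54% given above, and 4 of 53 is near them. DESeq2 called 1 of them, Pdp2, a phosphatase that activates pyruvate dehydrogenase, in compound against HRC variant hearts, where it called 0.332% of all genes. Pdp2 had 75.5, 63.2 and 55.6 CPM in compound hearts, 43.6, 42.3 and 48.7 CPM in MYBPC3 deletion hearts, 34.8, 44.7 and 42.6 CPM in HRC variant hearts and 41.0, 46.6 and 46.7 CPM in nontransgenic hearts. Every compound library was above all 9 others. Of all genes, 6.20% had every compound library above every HRC variant library. The log2 difference of Pdp2 from HRC variant hearts was 0.67 (SE 0.14, edgeR adjusted p 0.321, DESeq2 adjusted p 0.00670). Pdp1, the other pyruvate dehydrogenase phosphatase, had 0.45 (SE 0.15, edgeR adjusted p 0.667) in the same contrast. Me1, the cytosolic malic enzyme, had 0.43 (SE 0.18) in compound and 0.39 (SE 0.14) in MYBPC3 deletion hearts against nontransgenic hearts, and Ogdhl, the relative of Ogdh, had -0.60 (SE 0.20) in MYBPC3 deletion against nontransgenic hearts, where nontransgenic 1 was at 272 CPM. The edgeR adjusted p of these 3 values was 0.710, 0.514 and 0.481. Klf15 had -0.69 (SE 0.25) and Idh1 -0.36 (SE 0.16) in HRC variant against nontransgenic hearts. In compound against MYBPC3 deletion hearts Ogdhl had 0.84 (SE 0.26) and Pdp2 0.44 (SE 0.17). Pdp2 also had 0.44 (SE 0.17) in compound against nontransgenic hearts. The interaction was 0.67 (SE 0.19) for Pdp2 and 0.94 (SE 0.29) for Ogdhl. None of these further values had an edgeR adjusted p below 0.508.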

How the data were processed

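The data are mRNA libraries of 12 mouse hearts in 4 groups of 3, labelled by genotype. Poly(A) RNA was captured on oligo(dT) beads and read as DNA nanoballs, per the labels' protocols. In 1 table the authors deposited, for each gene and library, an expected count (94.3% of them whole) and a TPM value. The same table holds the authors' log2 fold changes and their q-values (a DESeq2 column), per the file headers. HISAT, Bowtie2, DESeq2 and build GRCm38.p6 appear in the submitters' processing notes. No source used here names the counting tool or its use of strand, so genes that overlap or share reads are uncertain. Of 17380 lines, 1 without values was dropped, and 25 symbols turned into dates were restored from gene identifiers.

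Expected counts were rounded and tested with edgeR 4.0.16 in R 4.3.3: genes kept by filterByExpr (minimum count 10), TMM scaling, and 1 robust quasi-likelihood fit over 12 libraries with group and sex, leaving 7 residual degrees of freedom. P-values were adjusted over all 13849 genes by the Benjamini-Hochberg method, with calls under 0.05. Adjusted p without a tool's name is edgeR's. The fit was tested on simulated counts. Alternatives were DESeq2 1.42.0, limma-voom (limma 3.58.1), RLE scaling, no filter, no sex term, females, the compared groups alone, a replicate block, marker levels as terms, transcript length and each library left out. Members given in full were the 4 with the smallest p per contrast, and 2 for the companion genes. The remaining members were described by role. The members, companion genes and marker lists were chosen with earlier results of these data known. Transcript lengths are those of the longest protein-coding transcript of each gene in GENCODE.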

Additional observations from a re-analysis of the deposited data

How the results depend on the processing

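The count of called members was 0 under each alternative that refitted the test, except that DESeq2 called 1 member, Pcx, in MYBPC3 deletion against nontransgenic hearts (log2 difference -0.69, adjusted p 0.0482, against edgeR's 0.357). The fit of the compared groups alone has no interaction, and removing the length trend gives medians only. Leaving out 1 library at a time gave -0.87 to -0.42 for that difference. With the atrial marker level as a term, the members' median log2 difference was -0.147 in compound against nontransgenic, -0.103 in HRC variant against nontransgenic, -0.0854 in compound against MYBPC3 deletion and -0.0256 in compound against HRC variant hearts, and 0.0671 in the interaction. Without the sex term it was 0.0704 in compound against nontransgenic and -0.0292 in HRC variant against nontransgenic hearts. With the fat marker level as a term it was 0.0984 in compound against nontransgenic and 0.104 in compound against MYBPC3 deletion hearts, and 0.10 in the interaction. Bckdha in compound against nontransgenic hearts was -0.0437 without the sex term (adjusted p 0.967) and -0.108 with the atrial term (adjusted p 1.00). With the trend of transcript length removed, an alternative chosen after seeing the data, the median interaction was 0.34. The cause of these moves was not tested. Members higher in every compound than every nontransgenic library numbered 11 to 21 when 1 library was left out, also chosen after seeing the data, as were the fat marker term and the fits without nontransgenic 1 and MYBPC3 deletion 2 together, and the choice of which libraries stood apart in markers. The median in MYBPC3 deletion against nontransgenic hearts, which was under the spread between replicates (SD 0.142), was 0.02 without nontransgenic 1, and that in HRC variant against nontransgenic hearts was -0.09 without HRC variant 3. The replicate numbers did not pair the libraries: 5 of 18 same-numbered pairs had a correlation of deviations over 0.1, from -0.22 to 0.29. With a replicate block 0 members were called, and the median was 0.267 in compound against nontransgenic hearts. With 3 libraries a group, smaller differences cannot be called.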
